A study of Mus musculus with 2 samples.

Results

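The genes described here encode the receptor for the cytokine IL-6 and the JAK-STAT3 pathway behind it. They are the receptor chains Il6ra and Il6st, the kinases Jak1, Jak2 and Tyk2, the transcription factor Stat3, the phosphatase and adaptor Ptpn11, the STAT3 target Pim1 and the STAT3 inhibitor Pias3. They were taken from the deposited table by name, and the listed transcript that covers the most windows stood for each gene. This gave 9 of the 22605 genes in the table. All 9 were among the 18473 genes that had more than 21 reads in either library, which are called the genes counted below. Chromatin opening was measured by DHS-seq, in which nuclei are digested lightly with DNase I and the small fragments released from open sites are sequenced. The cells were M1, a mouse myeloid leukemia line that grows as immature progenitors and matures toward macrophages under IL-6. One group was untreated M1 cells. The other was M1 cells kept in IL-6 for 4 to 5 days, and both groups were at passage 15 to 18 in medium with horse serum. With 1 library in each group, differences carry no replicate check and no p-value is given.

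IL-6 binds the receptor chain IL-6Rα, encoded by Il6ra, and the complex then gathers the signaling chain gp130, encoded by Il6st. The Janus kinases held by gp130 phosphorylate it and then STAT3, which enters the nucleus and activates target genes, while SHP2, encoded by Ptpn11, links the receptor to the Ras-MAPK branch and dampens STAT3 signaling. In M1 cells this pathway is known to halt growth and to drive maturation toward macrophages.

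The table gives the mean and SD of reads per 700-bp window over the windows that a coding span, from start to stop codon, touches. The numbers of reads were recovered from these means, and 1 read of the IL-6 library counts as 1.03816 because the authors had scaled that library. Scaled reads are used for IL-6-treated cells wherever a mean or ratio is given. Intervals are at the 95% level. They reflect counting error alone, so they set 1 library against the other and say nothing of how cultures of a condition vary. Summed over non-overlapping coding spans of the autosomes and X, the untreated library had 9041094 reads and the IL-6 library 8498140. High signal was lower after IL-6 across the table. The median log2 ratio of IL-6-treated to untreated cells was 0.43 in the lowest decile of counted genes by signal, -0.52 in the decile below the top and -1.43 in the top decile, against 0.03 over all genes counted. Marker genes of cell types were read in the same way. The median log2 ratio was -0.49 for 7 myeloid progenitor genes and -0.82 for 7 macrophage genes, 0.19 for 3 T-cell genes, 0.39 for 3 B-cell genes and 0.49 for the 1 erythroid gene counted. Progenitor genes ran from -1.42 for Prtn3 to 0.41 for Kit, with 3 intervals below 1 and 2 above. Macrophage genes ran from -2.31 for Cd68 to 0.31 for Emr1, with 5 intervals below 1 and 1 above. Over all genes counted, 34.4% of intervals lay below 1 and 29% above. Median untreated signal was 26.2 reads per window for the macrophage and 14.1 for the progenitor genes, against 9.33 over all genes counted. None of the 3 B-cell genes had an interval apart from 1, and the T-cell genes differed among themselves, with -1.08 for Cd3d, 0.19 for Cd3g and 0.61 for Cd3e. In untreated cells Cd3d had 46.3, Cd3g 6.6 and Cd3e 10.5 reads per window, and no marker was at 0 in either library. The part of these differences in the results below was not tested.

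Before IL-6, the 9 genes differed 6.46-fold in mean signal per window. Pim1, which encodes a growth-promoting serine/threonine kinase, stood highest with 35.2 reads per window (interval 30.6 to 40.2). Tyk2 followed with 24.1 (22.4 to 25.8), Pias3 with 20.6 (18.2 to 23.2), Stat3 with 20.5 (19.0 to 22.2) and Il6ra with 17.9 (16.8 to 18.9). All 5 lay above the median of all genes counted, 9.33 reads per window. Ptpn11 had 10.8 (10.1 to 11.5), Jak1 had 9.0 (8.24 to 9.81), Il6st had 7.86 (7.04 to 8.74) and Jak2 had 5.44 (4.92 to 6.01). The signaling chain of the receptor and the kinase Jak2 therefore had less signal than the typical gene. Between neighbors in this order, the intervals of Tyk2 and Pias3, of Pias3 and Stat3, and of Jak1 and Il6st overlapped.

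After IL-6, the same genes lay closer together, with a 3.10-fold difference between the highest and the lowest. Stat3 had 18.2 reads per window (16.8 to 19.8) and Tyk2 had 18.0 (16.6 to 19.6). Pias3 had 14.1 (12.1 to 16.4), Il6ra had 13.6 (12.7 to 14.6) and Pim1 had 12.8 (10.1 to 16.1). The lower end of the order was as before, with Ptpn11 at 10.1 (9.41 to 10.8), Jak1 at 9.83 (9.02 to 10.7), Il6st at 7.53 (6.72 to 8.42) and Jak2 at 5.87 (5.31 to 6.47). Pim1 thus dropped below Stat3, Tyk2, Pias3 and Il6ra in the order, and its interval overlapped those of Il6ra, Pias3, Ptpn11 and Jak1. Stat3 and Tyk2 could not be separated by their intervals, nor could Pias3 and Il6ra, or Ptpn11 and Jak1. Among all genes counted, Pim1 moved from the 91.4 to the 71.5 percentile of the level, while Stat3 moved from the 81.7 to the 88.0 percentile.

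**Figure D1:**
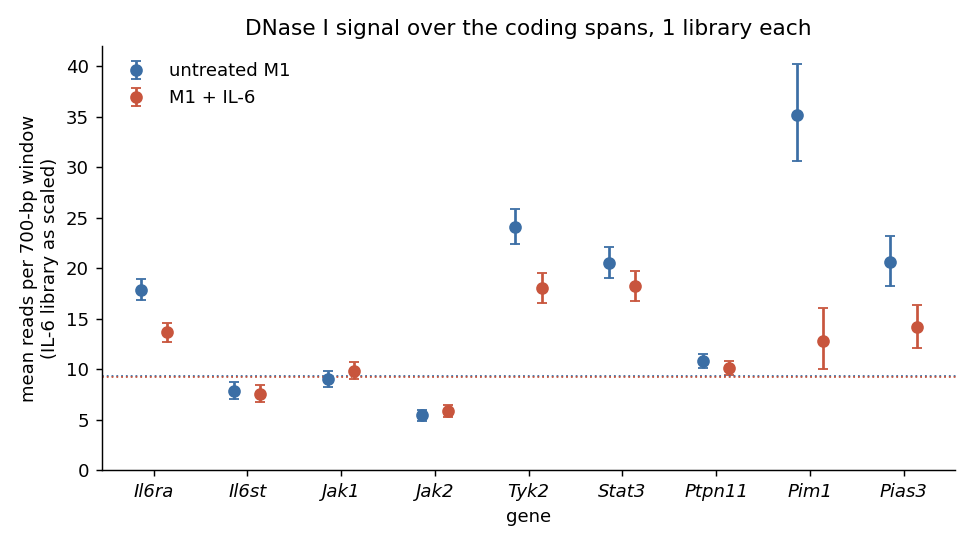
Mean reads per 700-bp window over the coding span of each gene (vertical axis, IL-6 library as scaled) in untreated and IL-6-treated M1 cells, with bars for the 95% Poisson interval and dotted lines at the medians of all genes counted, which nearly coincide. Pim1 goes from 35.2 to 12.8 reads per window, while for each of Jak1, Jak2 and Il6st the untreated and IL-6-treated points lie close together.

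The position of a gene's start decides whether its promoter is part of these values. RefSeq promoters of the 9 genes were matched to NCBIM37, the build of the table, and each of the 11 promoters matched 1 place. A RefSeq start lay in the listed windows for Il6ra, Ptpn11, Pim1 and Pias3. For the other genes the nearest listed window was 3.62 kb away in Tyk2, 10.0 kb in Jak2, 10.6 kb in Il6st, 28.2 kb in Stat3 and 71.3 kb in Jak1, so signal at those starts is not analyzed here. GENCODE M1 differs for Il6st and Tyk2, for which it places the start of the listed transcript inside the windows. Over all genes counted, 10137 had the annotated GENCODE start of the listed transcript in the windows, and their median log2 ratio was -0.12. The other 8336 genes had a median of 0.13.

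The 250 bases before the start are shown for the 4 genes whose listed windows include a RefSeq start, since these bases, except the first 21 of Pim1, belong to the measured windows. Each is written 5′ to 3′ on the strand of the gene, from RefSeq with positions on NCBIM37, and capitals mark each C followed by G, the dinucleotide that is dense in CpG-island promoters.
Il6ra, chr3:89717119-89717368, minus strand: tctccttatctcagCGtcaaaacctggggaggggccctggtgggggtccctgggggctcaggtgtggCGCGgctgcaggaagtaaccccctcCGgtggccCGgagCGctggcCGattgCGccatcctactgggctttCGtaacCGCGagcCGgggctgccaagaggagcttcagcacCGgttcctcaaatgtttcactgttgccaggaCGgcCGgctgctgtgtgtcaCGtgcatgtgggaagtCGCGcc
Ptpn11, chr5:121641407-121641656, minus strand: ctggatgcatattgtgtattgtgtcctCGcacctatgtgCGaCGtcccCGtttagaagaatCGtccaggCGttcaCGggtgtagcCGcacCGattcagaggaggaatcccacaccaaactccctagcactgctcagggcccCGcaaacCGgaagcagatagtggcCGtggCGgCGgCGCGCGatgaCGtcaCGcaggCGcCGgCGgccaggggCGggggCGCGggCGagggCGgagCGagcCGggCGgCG
Pim1, chr17:29627480-29627729, plus strand: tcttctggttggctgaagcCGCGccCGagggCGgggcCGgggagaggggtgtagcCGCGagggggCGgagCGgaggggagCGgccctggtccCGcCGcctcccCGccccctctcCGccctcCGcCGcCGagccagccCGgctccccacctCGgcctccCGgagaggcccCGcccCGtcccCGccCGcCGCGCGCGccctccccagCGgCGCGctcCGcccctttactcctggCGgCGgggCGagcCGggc
Pias3, chr3:96500749-96500998, plus strand: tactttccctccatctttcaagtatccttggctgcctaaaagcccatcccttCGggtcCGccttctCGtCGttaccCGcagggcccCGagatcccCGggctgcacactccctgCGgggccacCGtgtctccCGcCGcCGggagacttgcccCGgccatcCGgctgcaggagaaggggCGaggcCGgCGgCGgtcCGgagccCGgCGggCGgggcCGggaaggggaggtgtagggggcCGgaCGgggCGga
Pim1 had 36 such dinucleotides, Ptpn11 had 31, Pias3 had 26 and Il6ra had 18, against a median of 6 in the 32851 promoters of the reference table. Pim1 and Pias3 each had a second RefSeq promoter, with 4 and 7. The letters TTCNNNGAA, the core of a STAT binding site, which reads the same on both strands, occurred in 0 of the 11 member promoters and in 7.02% of all promoters. No match says only that these letters are not within these 250 bases.

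The receptor chain Il6ra (ENSMUSG00000027947) lies on chr3:89673246-89717084 on the minus strand. Its 61 windows held 1089 reads in untreated and 802 reads in IL-6-treated cells. The ratio was 0.765 (0.697 to 0.838), or -0.39 on the log2 scale. In the same decile of signal the median log2 ratio was -0.20, and Il6ra stood at the 39.8 percentile there. Its signal was the most uneven of the 9 genes before treatment. The SD between windows was 1.85 times the mean in untreated and 0.782 times the mean in IL-6-treated cells. From mean and SD, the strongest window held 80 to 271 reads before and 22.8 to 95.5 scaled reads after IL-6, and these bounds overlap.

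Il6st (ENSMUSG00000021756), the gp130 chain that all receptors of the IL-6 family share, lies on chr13:113265216-113297068 on the plus strand. Its 43 windows held 338 and 312 reads, a ratio of 0.958 (0.819 to 1.12). No change was detectable at this depth. Its strongest window held between 13 and 46 reads before and between 11.4 and 41.5 scaled reads after IL-6, so neither library showed that the listed windows of Il6st hold a site above 21 reads, the read number that the study's methods use for a hypersensitive site.

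Among the kinases, Jak1 and Jak2 were level between the libraries within counting error, and Tyk2 was lower after IL-6. Jak1 (ENSMUSG00000028530, chr4:100824972-100937887, minus strand), the main kinase of gp130 signaling, held 522 and 549 reads in 58 windows, a ratio of 1.09 (0.967 to 1.23). Jak2 (ENSMUSG00000024789, chr19:29326318-29387570, plus strand) held 392 and 407 reads in 72 windows, a ratio of 1.08 (0.936 to 1.24). Tyk2 (ENSMUSG00000032175, chr9:20908521-20931790, minus strand) held 795 and 573 reads in 33 windows, a ratio of 0.748 (0.671 to 0.834). The intervals of Jak1 and Jak2 both lie above that of Tyk2. Tyk2 nevertheless stood at the 54.7 percentile of the log2 ratio in its own decile of signal. Jak1 stood at the 50.6 and Jak2 at the 38.2 percentile in theirs. A shorter Jak1 transcript separated 4 windows at the start-codon end of the coding span, chr4:100863701-100866500. These held 21 reads before and 23 after IL-6, and the untreated windows held 6, 6, 5 and 4 reads. The 5.25 reads per window there were 0.566 times the 9.28 reads per window of the other 54, so the start-codon end of Jak1, far from its promoter, was not where its signal was highest.

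Stat3 (ENSMUSG00000004040, chr11:100746412-100800854, minus strand), the transcription factor that IL-6 activates, held 678 reads before and 579 after IL-6 in 33 windows. The ratio was 0.887 (0.792 to 0.992) and the log2 ratio -0.17. In its decile of signal the median log2 ratio was -0.52, and Stat3 stood at the 65.7 percentile. The single window at the 3′ end of the coding span, chr11:100749601-100750300, could be separated and held 28 and 34 reads, a ratio of 1.26 (0.742 to 2.16). It was above 21 reads in both libraries. The other 32 windows went from 650 to 545 reads, a ratio of 0.870 (0.775 to 0.977).

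Ptpn11 (ENSMUSG00000043733, chr5:121580542-121641406, minus strand) has the longest coding span of the 9 genes, with 82 windows. It held 885 and 798 reads, a ratio of 0.936 (0.850 to 1.03), and no change was detectable at this depth. Its strongest window held 23 to 113 reads in untreated and 14.5 to 65.4 scaled reads in IL-6-treated cells. The untreated cells therefore had at least 1 window above 21 reads, and the treated cells need not have had one.

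Pim1 had the largest difference of the 9 genes. It lies on chr17:29627757-29632390 on the plus strand (ENSMUSG00000024014), and its 6 windows take in most of the gene and all but the first 21 bases of the promoter shown above. They held 211 reads in untreated and 74 reads in IL-6-treated cells, a ratio of 0.364 (0.276 to 0.477), a log2 ratio of -1.45 and a 2.75-fold lower signal. The strongest window held 72 to 111 reads before and 27.0 to 37.4 scaled reads after IL-6. These bounds do not overlap, and both lie above 21 reads. Pim1 stood at the 6.55 percentile of all genes counted by log2 ratio and at the 9.15 percentile in its decile of signal, in which 46.5% of genes were at least 1.5-fold lower. With the scaling by single windows described below its log2 ratio turned to 0.37.

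Pias3, which encodes an inhibitor that blocks DNA binding by STAT3, lies on chr3:96500298-96509976 on the plus strand (ENSMUSG00000028101). Its 13 windows held 268 reads before and 177 after IL-6, a ratio of 0.686 (0.564 to 0.832), a log2 ratio of -0.54 and a 1.46-fold lower signal. Pias3 thus lies just short of 1.5-fold. In its decile of signal the median log2 ratio was -0.52 and 46.5% of genes were at least 1.5-fold lower, and Pias3 stood at the 49.2 percentile there. Its 6 listed transcripts have 4 distinct spans, which divide the gene into 4 stretches. The difference between the libraries lay at the 5′ end. The first 3 windows, chr3:96500601-96502700, hold the RefSeq promoter shown above and exon 1. They had 139 reads before and 38 after IL-6. The ratio was 0.284 (0.193 to 0.409), or -1.80 on the log2 scale. These windows are 23.1% of the span, and held 51.9% (45.7 to 58.0) of the reads of Pias3 before and 21.5% (15.7 to 28.3) after IL-6. The other 10 windows together held 129 and 139 reads, a ratio of 1.12 (0.874 to 1.43). The scaling by single windows brought the log2 ratio of the 5′ stretch to 0.0091, while the contrast between the 5′ stretch and the other windows does not depend on a common factor.

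The single windows of the 5′ stretch follow from its mean and SD. In untreated cells they held either 93, 31 and 15 reads or 85, 51 and 3 reads, in unknown order, and in IL-6-treated cells 17, 14 and 7 reads. A window of 85 or 93 reads was thus the strongest of the whole gene before IL-6. After IL-6 the strongest window was no longer in the 5′ stretch, which held at most 17 reads in a window against at least 19 elsewhere. That is a small gap for 1 library. The next 2 windows held 14 and 11 reads before and 19 and 14 after, the following 6 held 72 and 84 reads in all with 19 to 28 reads in the strongest after IL-6, and the last 2 held 25 and 7 before and 13 and 9 after. In scaled reads the strongest window of Pias3 went from 85 or 93 to between 19.7 and 29.1.

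**Figure D2:**
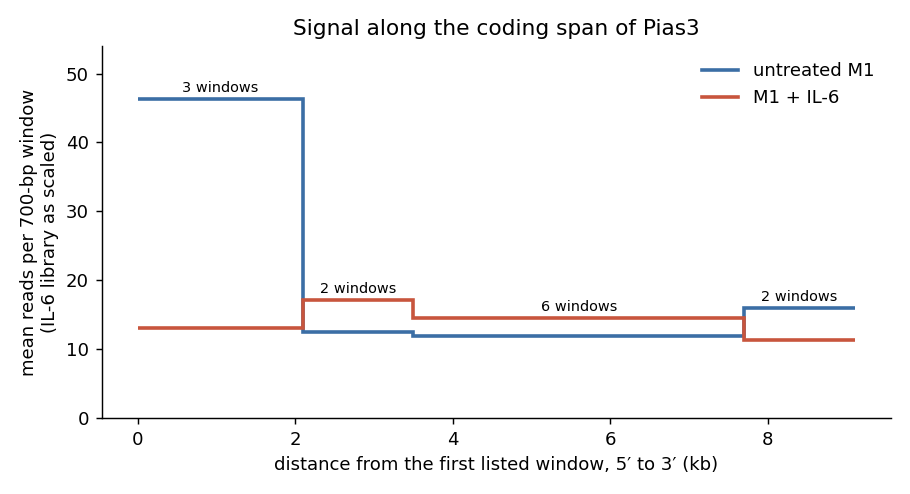
Mean reads per 700-bp window (vertical axis, IL-6 library as scaled) in the 4 stretches of the Pias3 coding span, by distance in kb from the first listed window, for untreated and IL-6-treated M1 cells. The first 3 windows go from 46.3 to 13.2 reads per window, and the ratio intervals of the other 3 stretches include 1.

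Lower signal at strong windows was general in this pair of libraries. Of 346 recovered single windows with at least 85 reads in untreated cells, 346 were at least 1.5-fold lower after IL-6, with a median log2 ratio of -2.15. No window of the Pias3 5′ stretch held more than 17 reads after IL-6, so the log2 ratio of its strongest untreated window was -2.24 or lower if that window held 85 reads and -2.37 or lower if it held 93. The value -2.24 is at the 41.0 percentile of the 346 windows, so the Pias3 window stood there or lower. Those windows were chosen by their untreated reads, so their ratios are a description. Among 1059 stretches of 3 windows that hold an annotated start, 34.0% were at least 1.5-fold lower and the 5′ stretch of Pias3 stood at the 9.54 percentile of the log2 ratio. It had more untreated reads than 82.0% of them.

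Of the 9 genes, 1 was at least 1.5-fold lower after IL-6, Pim1, beside 23.2% of all genes counted. None of the 9 was at least 1.5-fold higher, beside 10.8%. By the counting interval, 5 genes (Il6ra, Tyk2, Stat3, Pim1 and Pias3) had a ratio below 1, beside 34.4%, and 0 had a ratio above 1, beside 29%. The 5 genes whose interval lay below 1 were the 5 with the most signal before treatment. The median log2 ratio of the 9 genes was -0.17 against 0.03 for all genes counted. These directions hold for the scaling of the table. With the median of ratios over single windows that had more than 21 reads in both libraries, the log2 ratios were higher by about 1.83, 0 of the 9 genes were lower and 8 were higher by at least 1.5-fold, and the exception was again Pim1, at 0.37. Such windows are strong ones, beside a median of 9.33 untreated reads per window over all genes counted. With this scaling the median log2 ratio of the 20848 genes that then passed the read minimum was 1.89.

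**Figure D3:**
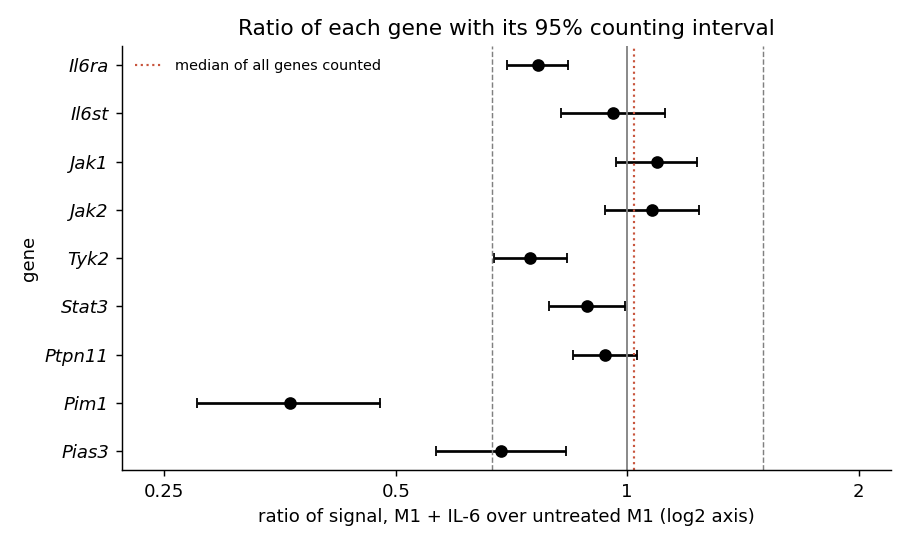
Ratio of scaled IL-6 reads to untreated reads for each gene (horizontal axis, log2 scale) with its 95% Clopper-Pearson interval. Dashed lines mark 1.5-fold, and only the interval of Pim1 (0.276 to 0.477) lies wholly beyond one of them with this scaling, while the scaling by single windows moves all points to the right by 1.83 on the log2 scale.

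Signal was more even along the gene after IL-6 in 9 of 9 genes, where the ratio of SD to mean over windows was lower. This was also so in 85.6% of the 16025 counted genes with at least 5 windows. The median of the 9 genes went from 1.06 to 0.613 and that of all genes from 1.00 to 0.722. In Pias3 it went from 1.12 to 0.397, the largest change as a ratio, while the largest difference was that of Il6ra given above. Il6st and Pim1 changed least by either measure, from 0.770 to 0.715 and from 1.06 to 0.974. In untreated cells 6 of the 9 genes (Il6ra, Tyk2, Stat3, Ptpn11, Pim1 and Pias3) must hold a window of more than 21 reads, beside 43.6% of all genes counted. In IL-6-treated cells 4 of the 9 (Il6ra, Tyk2, Stat3 and Pim1) must hold a window of more than 21 scaled reads, beside 23.5%.

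**Figure D4:**
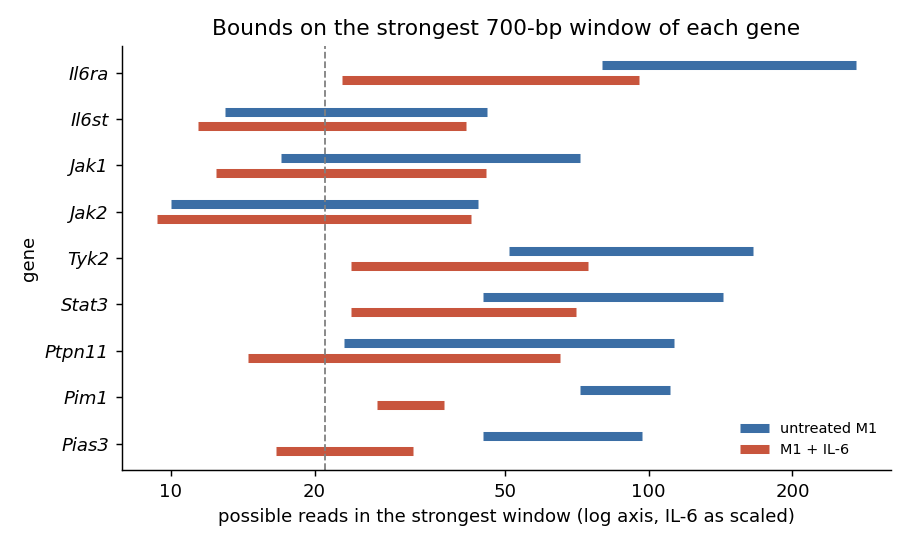
Lowest and highest number of reads that the mean and SD allow for the strongest 700-bp window of each gene (horizontal axis, log scale, IL-6 library as scaled), with a dashed line at 21 reads. The bars of the 2 libraries are apart for Pim1 (72 to 111 against 27.0 to 37.4) and Pias3 and overlap for the other 7 genes.

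**Figure D5:**
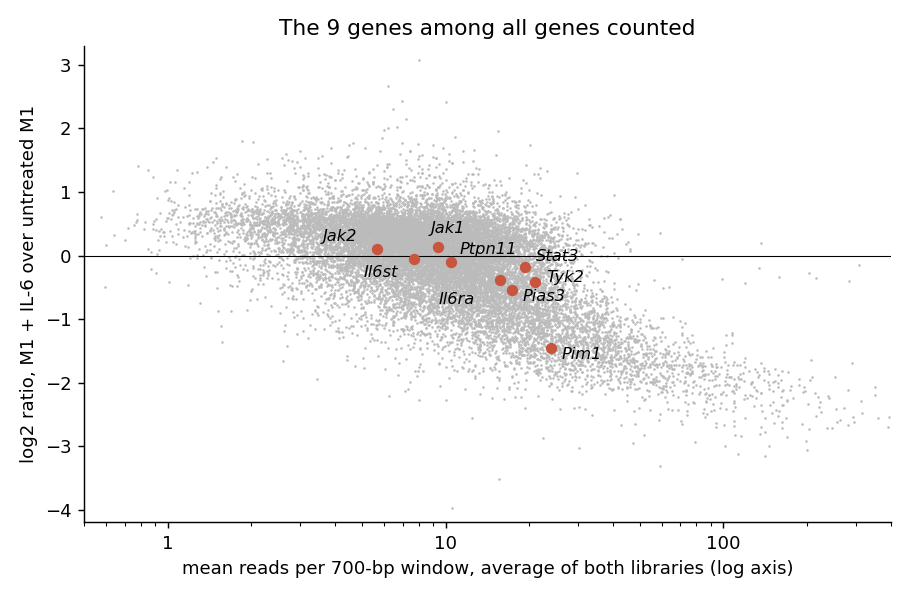
Log2 ratio of IL-6-treated to untreated cells (vertical axis) by the mean reads per window averaged over both libraries (horizontal axis, log scale) for the genes counted, with the 9 genes in red. Genes with more signal lie lower, Pim1 (-1.45) lies in the lower part of the cloud at its signal, and 25 genes lie beyond the ends of the signal axis.

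Stronger STAT site letters, TTCCNGGAA, occurred 4 times in the 280700 bases of windows of the 9 genes, in Il6ra, Jak2 and Pias3. These letters, a subset of TTCNNNGAA, also read the same on both strands. The sites are shown with 10 bases on each side, 5′ to 3′ on the strand of the gene from NCBIM37, with the site in capitals, because STAT3 is the factor that IL-6 activates.
Il6ra, chr3:89678915-89678943, minus strand: tctgctcattTTCCTGGAAtggacttaaa
Jak2, chr19:29336761-29336789, plus strand: aatggtgataTTCCTGGAAgtgctaattc
Jak2, chr19:29364448-29364476, plus strand: aaagacagaaTTCCAGGAAagaaggaata
Pias3, chr3:96507805-96507833, plus strand: attccagcccTTCCTGGAAgcaaagggta
The first lies in intron 9 of Il6ra, the second in exon 2 and the third in intron 11 of Jak2, and the fourth in exon 12 of Pias3. The Pias3 site falls in the 6 windows that held 72 reads before and 84 after IL-6, not in the 5′ stretch. There were 1.43 such sites per 100 kb in the 9 genes and 2.64 in all genes counted, and 33.3% of the 9 genes had one against 43.8%. TTCNNNGAA occurred 75 times in the 9 genes, 26.7 per 100 kb against 36.0. A match is a run of letters, and binding was not measured.

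The other genes of the pathway were listed by role, 63 in all, of which 61 were in the table and 59 were counted. Of these, 19 were at least 1.5-fold lower after IL-6, 1 was at least 1.5-fold higher, and the median log2 ratio was -0.30, which the scaling by single windows turned to 1.53. Over all genes counted 23.2% were lower and 10.8% higher, with a median of 0.03, and the counts of each list below stand beside these shares. Ligands of the gp130 family had 3 of 7 lower and 1 higher. Osm (oncostatin M) had a log2 ratio of -1.48 and Ctf1 (cardiotrophin 1) of -1.29, while Il27 had 0.69 and Lif 0.44. The list of other receptor chains and the proteases that shed the IL-6 receptor had 2 of 9 lower, Crlf2 and Adam10, and 0 higher. Crlf2 had -2.07, but it encodes the receptor chain for TSLP, which does not pair with gp130. The protease Adam10 had -0.65, while the receptor chains Osmr and Cntfr had 0.49 and 0.41.

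Inhibitors other than Pias3 had 5 of 10 lower, 0 higher and a median log2 ratio of -0.55, beside 23.2% lower, 10.8% higher and a median of 0.03 over all genes counted. This list also had more untreated signal, a median of 19.1 reads per window against 9.33 over all genes counted. Ndufa13, whose product binds STAT3, had -1.41 and the phosphatase Ptpn6 had -0.97, against 0.29 for Cish of the SOCS family and -0.09 for the Pias3 relative Pias2. Socs3, the feedback inhibitor of gp130, had 21 and 14 reads in 2 windows and was not counted. None of the 17 adaptor and Ras-MAPK or PI3K genes passed 1.5-fold in either direction. The kinase Mapk3 had -0.32, while Pik3r1, a PI3K subunit, had 0.06 and the adaptor Gab1 had 0.55. Known STAT3 targets other than Pim1 had 9 of 16 lower and 0 higher, with a median of -0.86, beside the same shares over all genes. The transcription factor genes Junb and Cebpb had -2.05 and -1.91, Lcn2 (lipocalin 2) had 0.09 and Fgl2 had 0.46. The target list also had the most untreated signal of the 5 lists, a median of 24.9 reads per window, and in the decile of signal that holds Pim1, Tyk2, Stat3 and Pias3, 46.5% of genes were lower. Junb and Cebpb had more signal than that, 175.7 and 90.5 untreated reads per window against 35.2 for Pim1. Lcn2 and Fgl2 had 7.0 each. In the top decile of signal the median log2 ratio was -1.43. The part of signal level in the counts of this list was not tested.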

How the data were processed

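DHS-seq compared M1 cells without and with IL-6, 1 library each. The authors digested nuclei with DNase I, sequenced the small fragments, removed adaptors and low-quality bases, used BWA (version not given in the sources used here) to align the reads to NCBIM37 and summarized them in Seqmonk. The deposited signal values are the mean and SD of reads over the 700-bp windows that each coding span touches, in 55432 transcript rows. The window size gave the listed number of windows in 55432 rows.

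Mean times number of windows was a whole number of reads (within 0.05) in 100% of the rows of each library, with a read worth 1.0 in untreated and 1.03816 in IL-6-treated cells. Transcripts that share a boundary gave sub-spans by difference. Sums of squared reads from mean and SD bounded the strongest window. The log2 ratio added 0.5 reads to each library. A gene was counted if at least 1 library had over 21 reads. Ratios and shares have Clopper-Pearson intervals, levels have exact Poisson intervals, both at 95%. With 1 library per condition no test was made. Alternatives covered the scaling, the reads added, the fold, the read minimum, the transcript used and, for levels, the lowest possible strongest window in place of the mean. Reads carried no molecular identifiers.

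The genes, the lists and the sub-spans were chosen with earlier results of these data known. Strongest-window bounds, deciles of signal, calls by interval, start sites and motif searches were added after the values had been seen. All 9 genes are named, and from each pathway list the 2 highest and 2 lowest log2 ratios among counted genes, except for 1 gene that is not reported here. Hras and Cebpd are not in the table used here, Cntf and Socs3 had too few reads, and the macrophage gene Adgre1 is listed as Emr1. The spans equal GENCODE M1 coding spans in 99.9% of the rows. RefSeq promoters came from GRCm38.p6 and were placed on NCBIM37 by exact sequence. The scripts were tested on simulated data and ran on Python 3.11.15, numpy 2.4.6, pandas 2.3.3, scipy 1.17.1 and matplotlib 3.10.9.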

Additional observations from a re-analysis of the deposited data

How the results depend on the processing

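Of the choices tried on the ratios, the scaling between the libraries moved them most. The alternative of a median of ratios over features was run over 544 recovered single windows with more than 21 reads in both libraries, and, chosen after the data were seen, over genes with the same minimum. The first made 1 IL-6 read worth 3.68 and moved the log2 ratios by 1.83. Of the 9 genes, 0 were then lower and 8 higher, beside 84 lower and 19087 higher of the 20848 genes that passed the read minimum. The median was 1.65 for the 9 genes and 1.53 for the pathway list. Log2 ratios then turned to 1.44 for Il6ra, 1.41 for Tyk2, 1.65 for Stat3 (1.63 for its 32 windows), 1.28 for Pias3 (0.0091 for its 5′ stretch) and 0.37 for Pim1. The second moved them by -0.01 and changed no direction or count. The order of the genes does not depend on one common factor. The total over coding spans moved the log2 ratios by 0.04. Without scaling 2 genes (Pim1 and Pias3) were at least 1.5-fold lower, beside 4583 of the 18407 genes that then passed the read minimum. A smaller fold as the threshold gave 4 (Il6ra, Tyk2, Pim1 and Pias3), and the share of all genes at that fold is not given here. The Pias3 transcript with the fewest windows covers only the 2 windows next to the 5′ stretch and had a log2 ratio of 0.45. Its ratio interval, 0.790 to 2.40, includes 1. Of 163 alternative values, 128 kept their direction and size, 25 moved and 10 turned a direction that had been called. Among the 25, scaling by single windows also changed the sign of 3 log2 ratios whose ratio intervals included 1, to 1.73 for Ptpn11, 1.76 for Il6st and 1.33 for the last Pias3 stretch, and 9 replaced a mean level by the lowest possible strongest window, which is another quantity. Splits of all genes are 68.2% lower among those at least 1.5-fold apart with the scaling of the table, 75.4% without scaling and 0.438% with single windows. No paired analysis was possible because there was only a single library per group.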
